A study of Mus musculus with 93 samples.

Results

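The rod phototransduction transcripts described here are those of 9 genes, found by symbol among the 30235 genes of the deposited tables. The rod G protein transducin is encoded by Gnat1 (alpha), Gnb1 (beta) and Gngt1 (gamma). The rod cGMP phosphodiesterase PDE6 is built from the catalytic subunits Pde6a and Pde6b and the inhibitory subunit Pde6g. Cnga1 and Cngb1 encode the subunits of the cGMP-gated cation channel of the rod outer segment, and Sag encodes rod arrestin. In a rod, light leads to the activation of transducin, whose alpha subunit relieves PDE6 of its inhibitory subunits. PDE6 then breaks down cGMP, the channel closes and the cell hyperpolarises, until arrestin helps to end the signal. All of these genes but Gnb1, a G protein beta subunit that many cell types use, are known mainly from photoreceptors.

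Poly(A) RNA was sequenced from neural retina and from posterior eyecup, the eye without lens and retina, of untreated female Efemp1ki/ki and wild-type (Wt, Efemp1+/+) mice at 3, 9 and 17 months of age. Efemp1ki/ki mice are homozygous for a knock-in allele of Efemp1, the gene of fibulin-3, a protein of the extracellular matrix. In humans a missense change in this gene causes Doyne honeycomb retinal dystrophy. The labels give neither the base change nor the strain background. Each of the 6 retina groups held 8 libraries, and the eyecup groups held 8, 8 and 7 Efemp1ki/ki and 6, 8 and 8 wild-type libraries at 3, 9 and 17 months. Whether every library is from its own mouse is not stated in the labels, and p-values therefore rest on the spread among libraries, which may be technical. The Efemp1 transcript level is no check of the labels, because an altered codon can leave it as it is.

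In the mouse genome GRCm38, the files place Gnat1 (ENSMUSG00000034837.12) at 107674474 to 107679712 on chromosome 9, Gnb1 (ENSMUSG00000029064.15) at 155491361 to 155559269 on chromosome 4 and Gngt1 (ENSMUSG00000029663.10) at 3993792 to 3997436 on chromosome 6. Pde6a (ENSMUSG00000024575.15) lies at 61220482 to 61289924 on chromosome 18, Pde6b (ENSMUSG00000029491.7) at 108388391 to 108432397 on chromosome 5 and Pde6g (ENSMUSG00000025386.2) at 120447605 to 120453500 on chromosome 11. Cnga1 (ENSMUSG00000067220.12) lies at 72603696 to 72644275 on chromosome 5, Cngb1 (ENSMUSG00000031789.17) at 95239045 to 95306585 on chromosome 8 and Sag (ENSMUSG00000056055.13) at 87803680 to 87845158 on chromosome 1. All 9 are annotated as protein coding. The values are gene totals, with no split into exons or isoforms.

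The 45 eyecups had 14236127 to 35297627 estimated counts per library, and the 48 retinas had 9218127 to 37475492. The 9 genes together took from 0.0433% to 1.30% of the counts of an eyecup and from 2.56% to 3.23% of those of a retina. In 6 libraries the typical gene lay unusually far from its group median, at a distance above the tissue's median distance plus 3 of its scaled median absolute deviations. These were Efemp1ki/ki replicate 5 at 3 months, wild-type replicate 7 at 9 months and wild-type replicate 2 at 17 months in the retina, and Efemp1ki/ki replicate 4 at 3 months, wild-type replicate 4 at 9 months and wild-type replicate 2 at 17 months in the eyecup. Where leaving them out changed a call described here, the value without them is given.

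Promoter sequences of 4 of the genes are shown because Gnb1 behaved unlike the others in the eyecup, while Sag, Cngb1 and Pde6b represent those that moved together there. Windows of 250 bases before to 50 bases after the start, from RefSeq's table on GRCm38.p6, were used for 6 of the 9 genes. These were Sag, Gnb1, Cnga1, Pde6b, Gngt1 and Cngb1, and no windows of the other genes were used. Capitals mark TAATCC or its reverse complement GGATTA, the core bound by the photoreceptor homeodomain factor CRX, and TGCTGA or its reverse complement TCAGCA, part of the element bound by the rod factor NRL. The windows are chr1:87803430-87803729 on the plus strand for Sag, chr8:95306536-95306835 on the minus strand for Cngb1, chr5:108388123-108388422 on the plus strand for Pde6b and chr4:155491111-155491410 on the plus strand for Gnb1.
Sag: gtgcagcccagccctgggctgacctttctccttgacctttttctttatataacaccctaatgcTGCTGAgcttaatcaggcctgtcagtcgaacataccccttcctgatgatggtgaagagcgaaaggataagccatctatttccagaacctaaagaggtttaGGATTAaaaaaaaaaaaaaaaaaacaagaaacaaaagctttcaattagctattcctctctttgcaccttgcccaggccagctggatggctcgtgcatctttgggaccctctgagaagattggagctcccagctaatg
Cngb1: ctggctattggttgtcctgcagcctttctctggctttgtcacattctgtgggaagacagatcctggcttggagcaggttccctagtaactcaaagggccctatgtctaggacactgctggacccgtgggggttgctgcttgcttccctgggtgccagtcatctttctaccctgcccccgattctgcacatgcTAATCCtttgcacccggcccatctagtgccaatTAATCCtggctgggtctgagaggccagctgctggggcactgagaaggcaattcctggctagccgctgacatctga
Pde6b: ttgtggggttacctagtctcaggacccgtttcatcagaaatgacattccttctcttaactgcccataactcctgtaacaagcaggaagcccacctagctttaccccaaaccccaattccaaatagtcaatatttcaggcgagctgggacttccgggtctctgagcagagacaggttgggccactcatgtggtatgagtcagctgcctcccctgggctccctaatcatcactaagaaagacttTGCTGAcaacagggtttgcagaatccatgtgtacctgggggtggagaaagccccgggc
Gnb1: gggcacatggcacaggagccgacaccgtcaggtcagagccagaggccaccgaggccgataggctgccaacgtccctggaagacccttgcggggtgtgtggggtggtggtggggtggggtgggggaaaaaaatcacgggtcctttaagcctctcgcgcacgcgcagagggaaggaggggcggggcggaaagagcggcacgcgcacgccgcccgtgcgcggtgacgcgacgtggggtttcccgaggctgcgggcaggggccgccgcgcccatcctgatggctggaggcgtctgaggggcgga
TAATCC on either strand was found in 4 of the 6 windows, those of Sag, Cnga1 and Gngt1 and at 2 places in Cngb1, and in 7.06% of 32851 promoters of the same length. TGCTGA on either strand was found in 2 of the 6, Sag and Pde6b, and in 19.5% of those promoters. The marked strings do not overlap, and the Gnb1 window held neither. A match of letters is a description, not a binding site, and its part in the levels in retina or eyecup was not tested.

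Levels within the retina were compared between genes on the deposited TPM scale, which allows for transcript length and has a fixed sum over protein-coding genes. Averaged over the 48 retinas, Gnat1 was the most abundant of the 9 at 12097 ± 704 TPM (SD over libraries, here and in the next sentences). The other transducin subunits averaged 4427 ± 305 TPM for Gnb1 and 2935 ± 359 TPM for Gngt1. Among the PDE6 subunits, the inhibitory Pde6g stood at 4909.6 ± 359.7 TPM, Pde6b at 1838 ± 72.8 TPM and Pde6a at 1392 ± 119 TPM. The channel subunits had the lowest means. Cngb1 averaged 809 ± 38.2 TPM and Cnga1 692 ± 33.5 TPM, while arrestin Sag averaged 4312 ± 261 TPM. The ranges of Pde6g, Gnb1 and Sag overlapped. Gngt1 reached 4619.5 TPM in wild-type replicate 2 at 17 months, a library that stands apart. In the others it reached at most 3666 TPM, still above the lowest Sag value of 3558 TPM. The ranges of Cngb1 and Cnga1 overlapped narrowly (747 TPM at the low end of Cngb1, 751 TPM at the high end of Cnga1). The ranges of Gnat1, Pde6b and Pde6a overlapped that of no other gene of the 9.

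**Figure D1:**
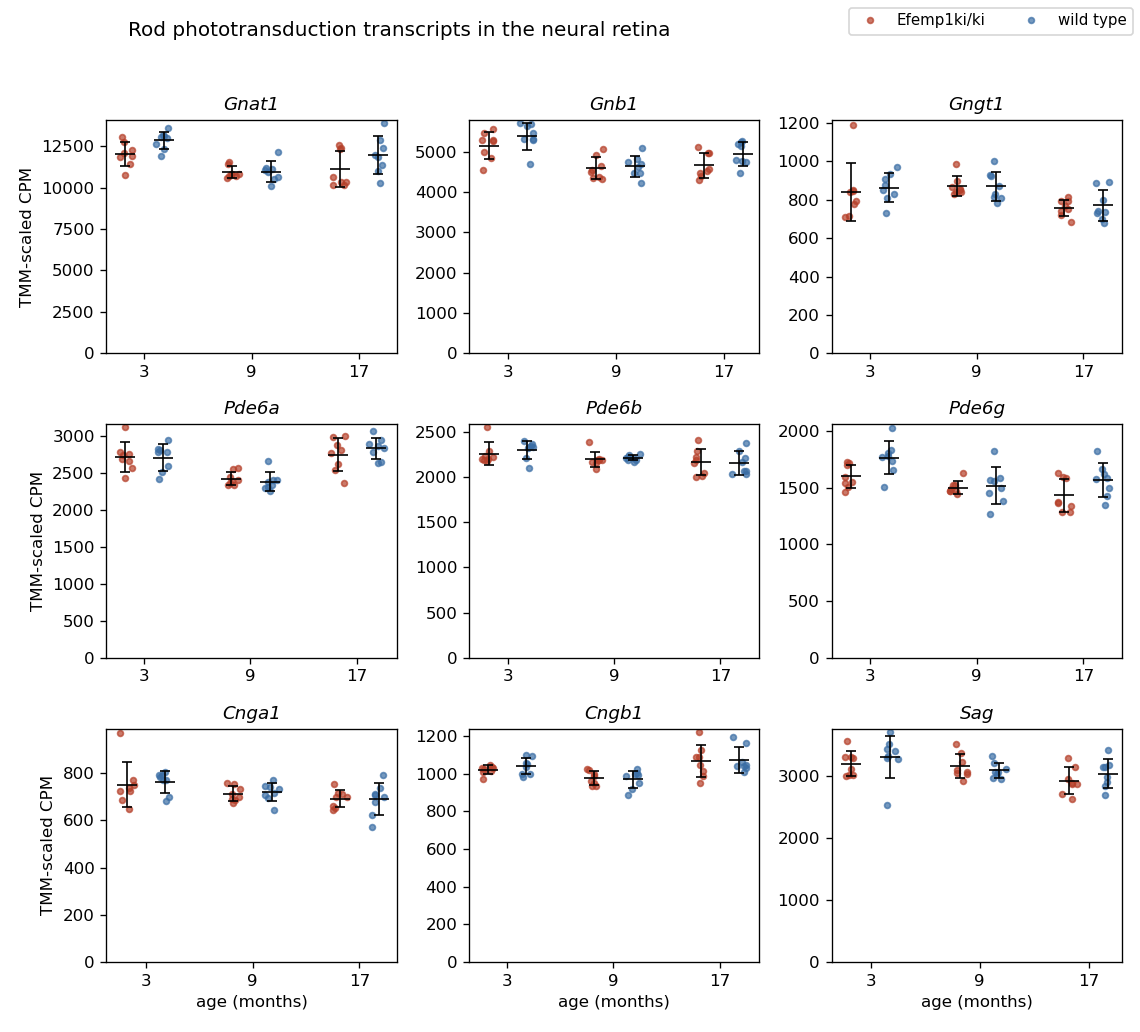
TMM-scaled CPM (counts relative to the scaled library total) of the 9 genes in each neural retina library (vertical axes from 0) by age in months, with Efemp1ki/ki left of wild type, and the mean and SD of each group (n = 8). The groups of a gene lie close together, and Pde6a has its lowest means at 9 months, 2419.5 CPM in the Efemp1ki/ki group and 2376 CPM in the wild-type group.

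The comparison of genotypes asked whether the rod cascade differed in Efemp1ki/ki retinas. Differences were tested with edgeR's quasi-likelihood test on counts scaled by the trimmed mean of M values (TMM), with Benjamini-Hochberg adjustment over 17240 genes, and a gene was called at an adjusted p under 0.05. None of the 9 genes was called by edgeR at 3 months (1.83% of all genes called), 9 months (0% called), 17 months (0.406% called) or for the mean of the 3 ages (5.24% called). At an unadjusted p under 0.05 there were 1 at 3 months, 0 at 9 months, 2 at 17 months and 3 for the mean of the ages, against 3394, 1047, 2624 and 3742 of all 17240 genes. DESeq2 called 0 in each of these 4 comparisons, and limma voom with quality weights called 2 at 3 months and 2 for the mean of the ages, Gnat1 and Pde6g in both. For the mean of the ages all 9 log2 fold changes (Efemp1ki/ki over wild type) were negative, with a median of -0.02 against -0.00 over all genes, but on the deposited TPM values those of Pde6a (0.03), Pde6b (0.02), Cngb1 (0.04) and Sag (0.02) were positive. In bulk tissue, fewer rods and less RNA per rod cannot be told apart.

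Pde6g, the inhibitory PDE6 subunit, had the smallest p of the 9 for the mean of the ages. At 3 months its CPM (counts relative to the TMM-scaled library total) had a lowest, median and highest value of 1466, 1577 and 1726 in Efemp1ki/ki retinas, against 1508, 1779 and 2026 in wild-type retinas. At 9 months these were 1442, 1479 and 1635 CPM in Efemp1ki/ki retinas, against 1269, 1530 and 1829 CPM in wild-type retinas. At 17 months they were 1284, 1371 and 1629.6 CPM in Efemp1ki/ki retinas, against 1347, 1583 and 1825 CPM in wild-type retinas. The genotypes overlapped at each age, and the median of the Efemp1ki/ki group was the lower one at each. The log2 fold change of Pde6g over the ages was -0.10 ± 0.03 (SE), with an adjusted p of 0.0868 by edgeR. It passed under limma voom with quality weights (adjusted p = 0.0121) and under offsets for GC content (adjusted p = 0.0393), and did not pass under the other 7 alternatives. Over all 9 alternatives the adjusted p ran from 0.0121 to 0.236.

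Gnat1, the transducin alpha subunit that activates PDE6, lay between 10780 and 13051 CPM (median 11989) in Efemp1ki/ki retinas at 3 months, against 11938 to 13577 CPM (median 13025) in wild-type retinas. At 17 months it lay between 10162 and 12552 CPM (median 10500) in Efemp1ki/ki retinas, against 10265 to 13908 CPM (median 11912) in wild-type retinas. The groups overlapped at both ages, and at 9 months the medians were 10815 CPM in Efemp1ki/ki retinas, against 11006 CPM in wild-type retinas. The log2 fold change of Gnat1 for the mean of the ages was -0.07 ± 0.03 (SE; edgeR adjusted p = 0.141). Gnb1, which with Gngt1 forms the beta-gamma part of transducin, had -0.06 ± 0.03 (edgeR adjusted p = 0.204). The other 6 genes lay between -0.02 and -0.00 for the mean of the ages, with Sag at -0.02 ± 0.03 and Pde6a at -0.00 ± 0.03 (SE), although the TPM values gave 0.02 for Sag and 0.03 for Pde6a. How the genotype difference at 17 months compared with that at 3 months was tested too, and a change was called for 0 of the 9 genes by edgeR (0% of all genes called), with 0 at an unadjusted p under 0.05 and 0 by DESeq2.

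Among 15 other genes of the rod cascade, 1 was higher (2.55% of all genes called higher) and 2 were lower (2.69% called lower) in Efemp1ki/ki retinas for the mean of the ages. Grk1, a receptor kinase that helps to shut off the light response, was higher, with a log2 fold change of 0.13 ± 0.03 (SE; edgeR adjusted p = 0.0107). Pdc, phosducin, which binds the transducin beta and gamma subunits, was lower at -0.14 ± 0.03 (edgeR adjusted p = 0.00908). Pde6d, which carries prenylated proteins such as PDE6 subunits to the outer segment, was lower at -0.12 ± 0.03 (edgeR adjusted p = 0.00411). The median of these 15 genes was -0.03. Of 11 genes of the cone cascade, only Grk1, which mouse cones also use, was called by edgeR in that contrast, and of 8 photoreceptor transcription factors it called 0, with 3 at an unadjusted p under 0.05 (Crx, Nrl and Otx2).

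Transcripts of other tissues and of the immediate early response differed between the same groups. The 8 lens markers summed to 1.40 to 2328 TPM at 3 months, 1.02 to 3314 TPM at 9 months and 1.20 to 372 TPM at 17 months in Efemp1ki/ki retinas, against 0.296 to 64.8 TPM, 0.796 to 153 TPM and 1.06 to 3.53 TPM in wild-type retinas. Of the 8, 5 were abundant enough to test and all 5 were called higher in Efemp1ki/ki retinas for the mean of the ages by edgeR (2.55% of all genes called higher), while Crygd and Lim2 had a median of 0 TPM over the retinas. The 6 immediate early genes summed to 187 to 313 TPM in Efemp1ki/ki and 87.3 to 219 TPM in wild-type retinas at 3 months, and 4 of 6 were called higher for the mean of the ages. Of 7 ganglion cell markers, 4 were called lower in Efemp1ki/ki retinas for the mean of the ages (2.69% of all genes called lower), and they summed to 933 to 1068 TPM in Efemp1ki/ki and 962 to 1091 TPM in wild-type retinas at 3 months. With pigment epithelium and lens markers as covariates, 0 of the 9 rod genes were called between genotypes in any of the 4 comparisons by edgeR. The part of the other markers in the rod transcripts' values was not tested.

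**Figure D2:**
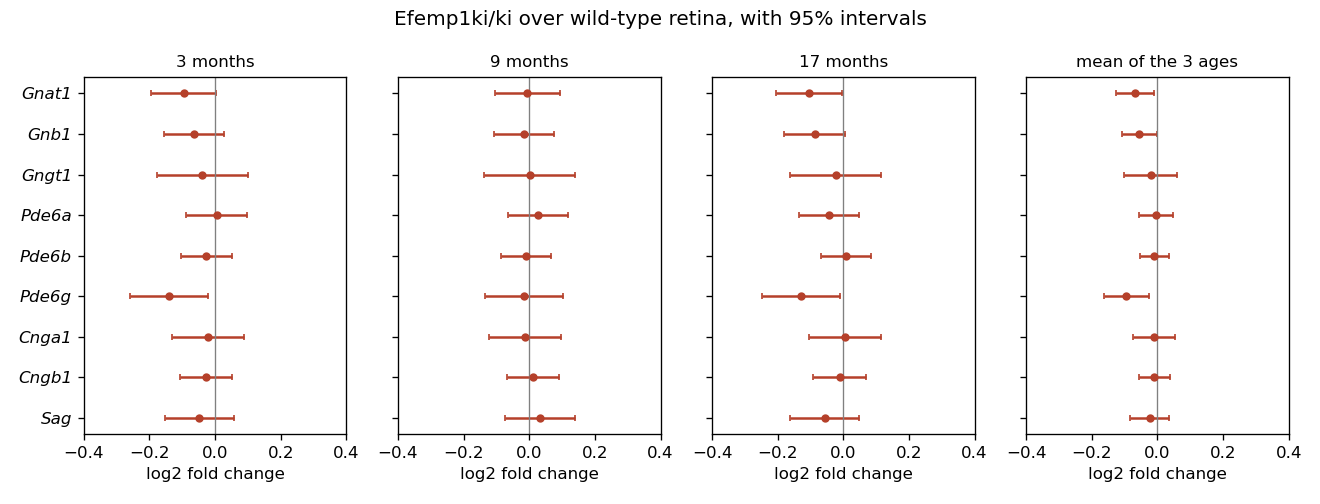
Log2 fold changes (Efemp1ki/ki over wild type, horizontal axes) of the 9 genes in the retina at each age and for the mean of the 3 ages, with 95% intervals from the edgeR fit. No gene was called; Pde6g lies farthest to the left at 3 months, at 17 months and for the mean, where all 9 points are below 0, although on the TPM values Pde6a, Pde6b, Cngb1 and Sag lie above 0 for the mean.

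Age was compared within each genotype, between separate sets of libraries. Age therefore cannot be told apart from other differences between these sets, such as collection. Fell and rose mean lower and higher in the later set. Between 3 and 9 months, 2 of the 9 genes fell in Efemp1ki/ki retinas (3.38% of all genes called lower) and 5 of 9 fell in wild-type retinas (15.5% of all genes called lower), while edgeR called 0 higher in either (5.12% of all genes called higher in Efemp1ki/ki, 15.3% in wild type). Gnb1 and Pde6a were called in both genotypes. The difference between the genotypes in the change from 3 to 9 months, a contrast added after the data were seen, was called for 0 of the 9 genes by edgeR (0.0174% of all genes called), with 0 at an unadjusted p under 0.05 and 0 by DESeq2. Contrasts averaged over both genotypes were likewise added after the data were seen.

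Pde6a, a catalytic PDE6 subunit, gave a lowest, median and highest value of 2423, 2707 and 3113 CPM at 3 months, 2327, 2393 and 2558 CPM at 9 months and 2357, 2787 and 2994 CPM at 17 months in Efemp1ki/ki retinas. In wild-type retinas these were 2408, 2781 and 2936 CPM at 3 months, 2255, 2348 and 2659.8 CPM at 9 months and 2626, 2844 and 3057 CPM at 17 months. In each genotype the 9-month group had the lowest median, and its range overlapped those of the 3-month and 17-month groups. At 9 against 3 months the log2 fold change of Pde6a was -0.17 ± 0.05 in Efemp1ki/ki retinas (SE; edgeR adjusted p = 0.0162) and -0.19 ± 0.05 in wild-type retinas (edgeR adjusted p = 0.00157). At 17 against 9 months it was 0.18 ± 0.05 in Efemp1ki/ki retinas (edgeR adjusted p = 0.0176) and 0.25 ± 0.05 in wild-type retinas (edgeR adjusted p = 0.000145). These 4 calls held under all 10 alternatives run for each. At 17 against 3 months it was 0.02 ± 0.05 in Efemp1ki/ki and 0.06 ± 0.05 in wild-type retinas (SE), and neither passed.

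Gnb1 spanned 4313 to 5075 CPM at 9 months (median 4526) in Efemp1ki/ki retinas, against 4533 to 5553 CPM at 3 months (median 5270). In wild-type retinas it spanned 4212 to 5084 CPM at 9 months (median 4657), against 4691 to 5706 CPM at 3 months (median 5384). The 2 ages overlapped in both genotypes, with the lower median at 9 months. The log2 fold change of Gnb1 at 9 against 3 months was -0.17 ± 0.05 in Efemp1ki/ki retinas (SE; edgeR adjusted p = 0.015) and -0.22 ± 0.05 in wild-type retinas (edgeR adjusted p = 0.000343). Gnat1 differed by -0.14 ± 0.05 in Efemp1ki/ki retinas (edgeR adjusted p = 0.0698) and by -0.23 ± 0.05 in wild-type retinas (edgeR adjusted p = 0.000419). Its 9-month values reached up to 11540 CPM in Efemp1ki/ki retinas and up to 12171 CPM in wild-type retinas. Its 3-month values began at 10780 CPM in Efemp1ki/ki retinas and at 11938 CPM in wild-type retinas, so the ages overlapped.

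Pde6g and Cngb1, the modulatory channel subunit, completed the calls in wild-type retinas at 9 against 3 months. Pde6g differed by -0.09 ± 0.06 in Efemp1ki/ki retinas (SE; edgeR adjusted p = 0.352) and by -0.22 ± 0.06 in wild-type retinas (edgeR adjusted p = 0.00401). Cngb1 differed by -0.06 ± 0.04 in Efemp1ki/ki retinas (edgeR adjusted p = 0.348) and by -0.10 ± 0.04 in wild-type retinas (edgeR adjusted p = 0.0464), but its sign in wild type turned on the TPM values (0.03) and it did not pass without the libraries that stand apart (edgeR adjusted p = 0.0706), with no filter, with only the groups compared or with GC offsets. In the mean of both genotypes 5 genes were called lower at 9 months (16.6% of all genes called lower). These were Gnat1 at -0.18, Gnb1 at -0.19, Pde6a at -0.18, Pde6g at -0.16 and Cngb1 at -0.08, with SEs of 0.03 to 0.04, and of these Cngb1 alone turned sign on the TPM values (0.01). The other 4 did not pass. They were the transducin gamma subunit Gngt1 at 0.03 ± 0.05, Pde6b at -0.05 ± 0.03, Cnga1 at -0.08 ± 0.04 and Sag at -0.06 ± 0.04 (SE).

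Between 9 and 17 months, Pde6a alone rose in Efemp1ki/ki retinas (2.23% of all genes called higher), and Pde6a and Cngb1 rose in wild-type retinas (10.2% of all genes called higher), Cngb1 not on the TPM values. Cngb1 spanned 950.1 to 1224 CPM at 17 months (median 1068) in Efemp1ki/ki retinas, against 935 to 1025 CPM at 9 months (median 975). In wild-type retinas it spanned 1011 to 1197 CPM at 17 months (median 1046), against 887 to 1023 CPM at 9 months (median 990). The 2 ages overlapped in both genotypes. The log2 fold change of Cngb1 was 0.13 ± 0.04 in Efemp1ki/ki retinas (SE; edgeR adjusted p = 0.0613) and 0.15 ± 0.04 in wild-type retinas (edgeR adjusted p = 0.00658), which turned to -0.03 on the TPM values and was 0.08 with an adjusted p of 0.159 under GC offsets. Without the libraries that stand apart, Cngb1 at 0.12 (edgeR adjusted p = 0.031) and Gngt1 at -0.20 (edgeR adjusted p = 0.0163) were called beside Pde6a in Efemp1ki/ki retinas. The difference between the genotypes in the change from 9 to 17 months, also added after the data were seen, was called for 0 of the 9 genes by edgeR (0% of all genes called), with 0 at an unadjusted p under 0.05 and 0 by DESeq2.

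Gngt1 had lower counts at 17 than at 9 months. In Efemp1ki/ki retinas it spanned 686 to 813 CPM at 17 months (median 759), against 832 to 989 CPM at 9 months (median 854), without overlap. In wild-type retinas it spanned 678 to 894 CPM at 17 months (median 737), against 784 to 1001 CPM at 9 months (median 852), with overlap. Its log2 fold change was -0.20 ± 0.07 in Efemp1ki/ki retinas (SE; edgeR adjusted p = 0.0888) and -0.18 ± 0.07 in wild-type retinas (edgeR adjusted p = 0.0596), against 0.00 and 0.16 on the TPM values. Without the libraries that stand apart the wild-type value was -0.19 (edgeR adjusted p = 0.0233). In the mean of both genotypes Gngt1 was called lower at -0.19 ± 0.05 (edgeR adjusted p = 0.00322; 14.3% of all genes called lower), but the TPM values and the GC offsets both gave 0.08 and no call. In that contrast Pde6a rose by 0.22 ± 0.03 (edgeR adjusted p = 3.16e-06; 12.7% of all genes called higher). Cngb1 rose by 0.14 ± 0.03 (edgeR adjusted p = 0.000273), against 0.01 and no call on the TPM values.

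Between 3 and 17 months, 2 of the 9 genes fell in Efemp1ki/ki retinas (9.01% of all genes called lower), Gnb1 at -0.14 ± 0.05 (SE; edgeR adjusted p = 0.0226) and Pde6g at -0.16 ± 0.06 (edgeR adjusted p = 0.0488). In wild-type retinas 1 of 9 fell (7.92% of all genes called lower), Pde6g at -0.17 ± 0.06 (edgeR adjusted p = 0.0367). Without the libraries that stand apart the counts were 1 in Efemp1ki/ki retinas, where Pde6g had an adjusted p of 0.0534 by edgeR, and 6 in wild-type retinas, with edgeR adjusted p-values of 0.0256 for Gnat1 (-0.14), 0.0328 for Gnb1 (-0.14), 0.00803 for Gngt1 (-0.20), 0.0114 for Pde6b (-0.12), 0.00623 for Pde6g (-0.21) and 0.0278 for Sag (-0.15). The shares of all genes in this paragraph are those of the fit with all libraries, so they cannot be set beside the counts without the libraries that stand apart. On the TPM values Gnb1 in Efemp1ki/ki retinas was at -0.05 with a limma adjusted p of 0.395.

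In the mean of both genotypes 7 of the 9 genes were called lower at 17 than at 3 months (17.3% of all genes called lower), Gngt1 not on the TPM values. These were Gnat1 at -0.11, Gnb1 at -0.13, Gngt1 at -0.16, Pde6b at -0.08, Pde6g at -0.17, Cnga1 at -0.13 and Sag at -0.13, with SEs of 0.03 to 0.05. On the TPM values 3 genes were called lower, Gnat1, Pde6g and Sag, Pde6a was called higher at 0.09, and Gngt1 turned to 0.10 without a call. Pde6a at 0.04 ± 0.03 and Cngb1 at 0.05 ± 0.03 (SE) did not pass on the counts.

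**Figure D3:**
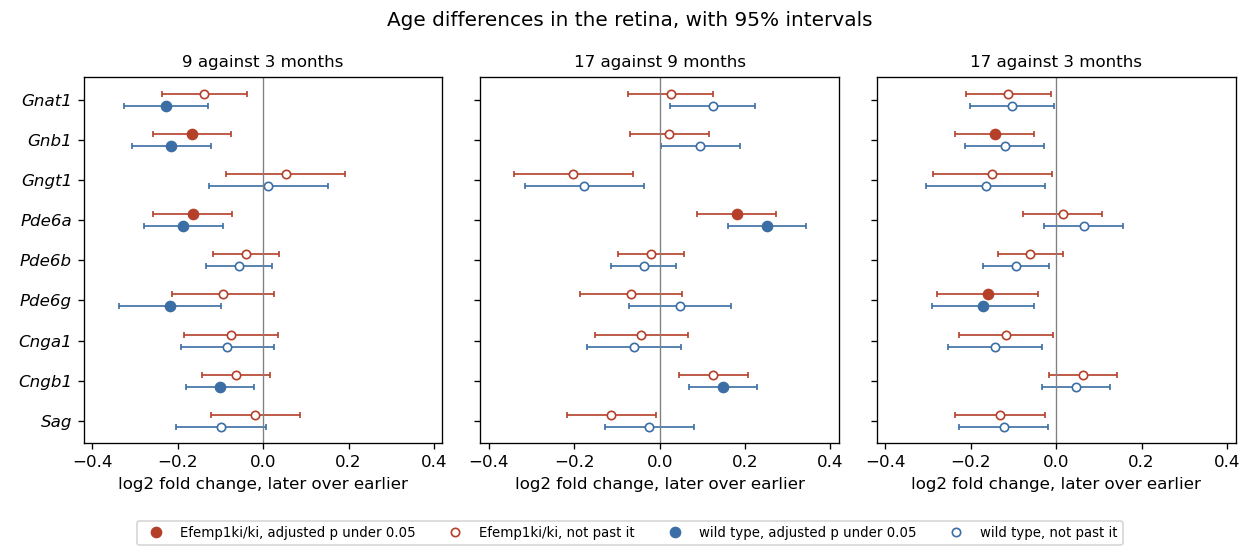
Log2 fold changes (later over earlier age, horizontal axes) of the 9 genes in the retina, with 95% intervals from the edgeR fit, Efemp1ki/ki above wild type; filled points passed an adjusted p under 0.05. Pde6a lies below 0 at 9 against 3 months and above 0 at 17 against 9 months in both genotypes; on the TPM values Cngb1 turned sign at 9 against 3 and 17 against 9 months in wild type, and Gngt1 at 17 against 9 months.

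Other photoreceptor genes were counted in the contrasts averaged over both genotypes. At 9 against 3 months, 9 of the 15 other rod cascade genes fell and none rose by edgeR (16.6% of all genes called lower, 17.4% called higher). Rcvrn, recoverin, the calcium sensor that restrains Grk1, was at -0.31 ± 0.04 (SE; edgeR adjusted p = 6.19e-08). At 17 against 9 months, 6 of the 15 rose and 1 fell (12.7% of all genes called higher, 14.3% called lower). Rgs9, which speeds the shut-off of transducin, was at 0.27 ± 0.07 (edgeR adjusted p = 0.00233), and Pdc was at -0.14 ± 0.04 (edgeR adjusted p = 0.008). Of 8 photoreceptor transcription factors, 4 fell and 1 rose at 9 against 3 months, and Nrl, which specifies rods, was at -0.22 ± 0.03 (edgeR adjusted p = 4.77e-08). Of 7 tested outer segment genes 4 fell and 1 rose at 9 against 3 months, and of 11 cone cascade genes 5 fell and 1 rose.

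Other markers moved with age in the same libraries. At 9 against 3 months in the mean of both genotypes, edgeR called 6 of 7 ganglion cell markers and all 6 immediate early genes lower (16.6% of all genes called lower). At 17 against 9 months all 6 immediate early genes were called higher (12.7% of all genes called higher). At 17 against 3 months 4 of 5 microglia markers were called higher (19.1% of all genes called higher), with Csf1r at 0.39 ± 0.05 and Tmem119 at 0.52 ± 0.11 (SE). In that contrast 6 of 7 ganglion cell markers, 4 of 7 amacrine and horizontal cell markers and 3 of 7 Mueller glia markers were called lower (17.3% of all genes called lower), among them Calb1 at -0.34 ± 0.05 (SE). Of 9 clock genes 4 were called higher at 9 against 3 months (17.4% of all genes called higher), among them Per2 at 0.39 ± 0.06 and Per3 at 0.33 ± 0.04 (SE), and at 17 against 3 months 4 were called higher and 1 lower. The 5 microglia markers summed to medians of 17.9, 21.3 and 25.0 TPM in Efemp1ki/ki retinas and of 18.6, 23.2 and 25.0 TPM in wild-type retinas at 3, 9 and 17 months. The summed immediate early genes had medians of 245, 123 and 206 TPM in Efemp1ki/ki retinas and of 126, 117 and 135 TPM in wild-type retinas at 3, 9 and 17 months. The 8 pigment epithelium markers summed to medians of 90.0, 147 and 190.2 TPM in Efemp1ki/ki retinas and of 125, 95.8 and 114 TPM in wild-type retinas. With pigment epithelium and lens markers as covariates, the calls of Pde6a at 9 against 3 and at 17 against 9 months held in both genotypes. The part of the other markers in the rod transcripts' values was not tested.

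Ratios of 2 transcripts within a library need no scaling between libraries. For 6 ratios in 9 comparisons of retina groups, exact 2-sided permutation tests of the mean log2 count ratio were adjusted over the 54 tests. The adjusted p was under 0.05 in 18 of them, and the smallest p that 8 against 8 libraries allow is 0.0001554. Ratios of other gene pairs were not tested, so the share of such ratios that would pass is not known. Of all single genes, edgeR called 30.7% (9 against 3 months), 21.6% (17 against 9) and 17.8% (17 against 3) in wild type. In Efemp1ki/ki these shares were 8.49%, 3.53% and 18.8%. A count ratio between genes also reflects transcript length, so only its difference between groups is read. Differences between libraries in their trend with GC content do not cancel in a ratio, and the ratios were not tested with GC offsets.

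The ratio of the PDE6 catalytic subunits, Pde6a to Pde6b, was lowest at 9 and highest at 17 months in both genotypes. It averaged 1.20 ± 0.044, 1.10 ± 0.041 and 1.26 ± 0.043 in Efemp1ki/ki retinas and 1.17 ± 0.048, 1.07 ± 0.057 and 1.31 ± 0.046 in wild-type retinas at 3, 9 and 17 months (SD, n = 8 each). At 17 against 9 months the values ran from 1.17 to 1.30 against 1.06 to 1.17 in Efemp1ki/ki retinas, and from 1.26 to 1.39 against 1.02 to 1.20 in wild-type retinas. These groups did not overlap in wild type and overlapped at their ends in Efemp1ki/ki, where ratios of TPM did not overlap. The log2 difference at 17 against 9 months was 0.20 in Efemp1ki/ki (exact permutation test, adjusted p = 0.0024) and 0.29 in wild-type retinas (adjusted p = 0.00168, same test), against 0.21 and 0.30 on ratios of TPM. At 17 against 3 months the wild-type groups did not overlap either (log2 difference 0.16, exact permutation test, adjusted p = 0.00168). The Efemp1ki/ki difference of 0.08 had an adjusted p of 0.0375 by the exact permutation test, of 0.0540 without the library that stands apart and of 0.0543 on ratios of TPM.

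The ratio of the inhibitory to a catalytic PDE6 subunit, Pde6g to Pde6b, was lower in Efemp1ki/ki retinas at 2 of 3 ages. At 3 months its lowest, median and highest values were 0.671, 0.704 and 0.772 in Efemp1ki/ki retinas, against 0.711, 0.762 and 0.862 in wild-type retinas. At 17 months they were 0.587, 0.671 and 0.711 in Efemp1ki/ki retinas, against 0.661, 0.727 and 0.783 in wild-type retinas. The groups overlapped at both ages. The log2 difference was -0.11 at 3 months (exact permutation test, adjusted p = 0.0375) and -0.14 at 17 months (exact permutation test, adjusted p = 0.0288). At 9 months the means were 0.683 ± 0.0309 in Efemp1ki/ki and 0.685 ± 0.0734 in wild-type retinas (SD, n = 8 each). Without the libraries that stand apart the adjusted p was 0.0746 at 3 months and 0.0540 at 17 months by the exact permutation test, and on ratios of TPM it was 0.203 at 3 months and 0.0232 at 17 months. Of the ratio tests between genotypes these 2 alone passed.

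Rod arrestin relative to transducin alpha, Sag to Gnat1, was highest at 9 months in both genotypes. It averaged 0.267 ± 0.0097, 0.290 ± 0.0129 and 0.264 ± 0.0146 in Efemp1ki/ki retinas and 0.258 ± 0.0194, 0.283 ± 0.0104 and 0.255 ± 0.0078 in wild-type retinas at 3, 9 and 17 months (SD, n = 8 each). The log2 difference at 9 against 3 months was 0.12 in Efemp1ki/ki (exact permutation test, adjusted p = 0.00373) and 0.14 in wild-type retinas (exact permutation test, adjusted p = 0.00699). At 17 against 9 months it was -0.13 in Efemp1ki/ki (exact permutation test, adjusted p = 0.0061) and -0.15 in wild-type retinas (exact permutation test, adjusted p = 0.0024). The groups overlapped in each of these 4 comparisons, and the 4 calls held on ratios of TPM and without the libraries that stand apart.

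Within transducin, the ratio of Gnat1 to Gnb1 passed in 0 of the 9 comparisons by the exact permutation test on counts, with 0 at an unadjusted p under 0.05, and averaged between 2.34 and 2.41 in the 6 groups. On ratios of TPM it passed in 3, and was lower at 17 than at 9 months in Efemp1ki/ki (log2 difference -0.06) and wild-type retinas (-0.10). Gnat1 to Gngt1 averaged 14.5 ± 1.63, 12.6 ± 0.512 and 14.7 ± 0.989 in Efemp1ki/ki retinas and 14.9 ± 0.926, 12.7 ± 0.945 and 15.6 ± 1.67 in wild-type retinas at 3, 9 and 17 months (SD, n = 8 each). The 17-month and 9-month groups did not overlap in either genotype, with an adjusted p of 0.00168 by the exact permutation test in both. On ratios of TPM that log2 difference was 0.02 in Efemp1ki/ki and -0.11 in wild-type retinas, and neither passed. At 9 against 3 months the count ratio was lower in Efemp1ki/ki (log2 difference -0.20, exact permutation test, adjusted p = 0.0352) and wild-type retinas (-0.24, adjusted p = 0.00373, same test), with overlap in both. On ratios of TPM and without the libraries that stand apart, the Efemp1ki/ki difference passed in both (-0.26 to -0.22). The wild-type difference passed in 1 of the 2 (-0.21 to -0.06).

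The channel ratio, Cnga1 to Cngb1, was lower at 17 than at 9 months in Efemp1ki/ki retinas on counts but not on ratios of TPM, where the log2 difference was 0.00. Its count values ran from 0.570 to 0.692 at 17 months, against 0.697 to 0.811 at 9 months, without overlap (exact permutation test, adjusted p = 0.00168). In wild-type retinas it averaged 0.646 ± 0.0928 at 17 months, against 0.742 ± 0.0565 at 9 months (SD, n = 8 each), and did not pass (exact permutation test, adjusted p = 0.0504). The log2 difference on counts was nevertheless larger in wild-type (-0.21) than in Efemp1ki/ki retinas (-0.17). Ratios of TPM in wild-type retinas averaged 0.892, 0.835 and 0.885 at 3, 9 and 17 months. The channel ratio in Efemp1ki/ki retinas averaged 0.650 ± 0.0373 at 17 months, against 0.736 ± 0.111 at 3 months (SD, n = 8 each), with overlap, and the log2 difference was -0.17 (exact permutation test, adjusted p = 0.0382). It was -0.10 without the library that stands apart (exact permutation test, adjusted p = 0.0746) and -0.03 on ratios of TPM (exact permutation test, adjusted p = 0.258), and passed in neither. The wild-type log2 difference at 17 against 3 months was -0.19 on counts and did not pass (exact permutation test, adjusted p = 0.0504).

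**Figure D4:**
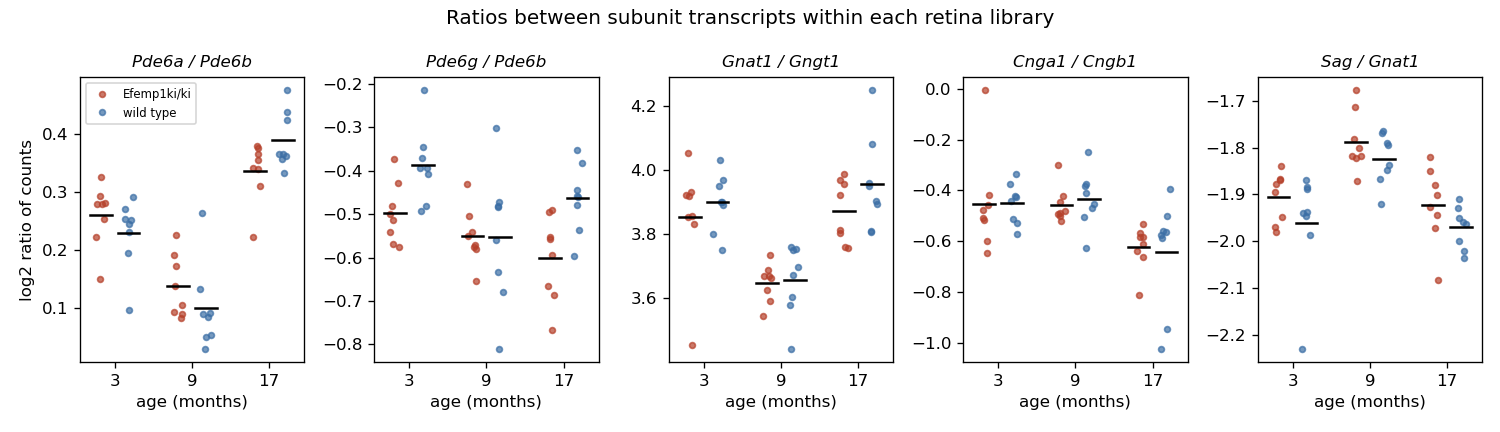
Log2 ratio of counts (vertical axes, which do not start at 0) of 5 pairs of transcripts in each retina library by age in months, Efemp1ki/ki left of wild type, with a bar at each group mean (n = 8). Pde6a to Pde6b is lowest at 9 and highest at 17 months and Sag to Gnat1 is highest at 9 months; on ratios of TPM the differences of Gnat1 to Gngt1 and Cnga1 to Cngb1 at 17 against 9 months did not pass.

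Across the 48 retinas, the genes steadiest relative to the rod transcripts were sought among 12053 genes with a mean of at least 5 CPM. The measure was the SD of the log2 ratio of a gene to the mean of the 8 rod transcripts other than Gnb1. Cplx4, a complexin of photoreceptor ribbon synapses, had the smallest SD (0.04), and Pcbp2, Ndrg3, Tmem59 and P4hb had 0.05, against a median of 0.16 over all genes. Of the 9 genes themselves, Pde6b had 0.05, and Sag, Gnb1 and Gnat1 had 0.06. Pde6g had 0.09, Cnga1 0.09, Cngb1 0.10, Pde6a 0.10 and Gngt1 0.12. All but Gnb1 are part of the mean they were compared with, and the libraries share depth and base composition, so these values are a description. The log2 TPM of the 9 genes had SDs of only 0.06 (Pde6b) to 0.16 (Gngt1) over the retinas. A gene that is itself steady can therefore have a small SD of this ratio, and correlation with the rod transcripts was not tested.

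In the posterior eyecup, from which the retina had been removed, all 9 transcripts were detected at levels below those of the retina. In wild-type mice at 3 months, edgeR called 9 of 9 lower in the eyecup (41.8% of all genes called lower), with log2 fold changes of -3.56 to -3.27 for 8 of them and of -2.64 ± 0.30 (SE) for Gnb1. Gnat1 had a lowest, median and highest value of 130.5, 789.6 and 1325 TPM in 6 eyecups, against 12402, 12883 and 13141 TPM in 8 retinas. Gnb1 had 288, 476 and 673 TPM in these eyecups, against 4242, 4744 and 4917 TPM in the retinas. The tissues did not overlap for either gene. On TPM the median of all genes was shifted by -0.44 in this comparison, and the log2 fold changes of -4.50 for Gnat1 and -3.34 for Gnb1 on that scale include the shift.

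Between eyecups the rod transcripts varied widely and together. As a share of its mean retina level in TPM, Gnat1 ran from 0.228% in Efemp1ki/ki replicate 7 at 9 months to 39.1% in wild-type replicate 4 at 9 months, with a median of 7.99% over the 45 eyecups. In the first of these eyecups Pde6a stood at 0.142%, Cnga1 at 0.146%, Sag at 0.298% and Gngt1 at 0.369%, while Gnb1 stood at 5.52%. In the second, Pde6a stood at 40.9%, Cnga1 at 39.3%, Sag at 39.0%, Gngt1 at 36.9% and Gnb1 at 42.7%. The 8 transcripts other than Gnb1 thus lay between 0.142% and 0.369% in the first eyecup and between 36.9% and 40.9% in the second, and Gnb1 was near them only in the second. The log2 ratio to Gnat1 over the eyecups had an SD between 0.08 for Pde6g and 0.27 for Gngt1, but of 1.00 for Gnb1, which ran from 5.36% to 42.7%.

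Other retinal genes also varied widely between the eyecups. Rcvrn ran from 0.243% to 36.5% of its retina mean, and Grm6, the glutamate receptor of ON bipolar cells, from 0.102% to 48.8%. Trpm1 and Prkca, which bipolar cells also use, kept a higher low end, at 8.96% to 61.2% for Trpm1 and 11.5% to 48.8% for Prkca. Rpe65, the retinoid isomerase of the pigment epithelium, ran from 538% to 3404% of its retina mean and stood at 1203% and 1374% in the eyecups with the lowest and highest Gnat1, so this defining marker was high in both. Genes other than the 9 that tracked the rod transcripts closely across the 45 eyecups included Nrl, Prph2, Kcnj14 and Slc17a7, with SDs of 0.09 to 0.13, against a median of 1.60 over all genes.

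**Figure D5:**
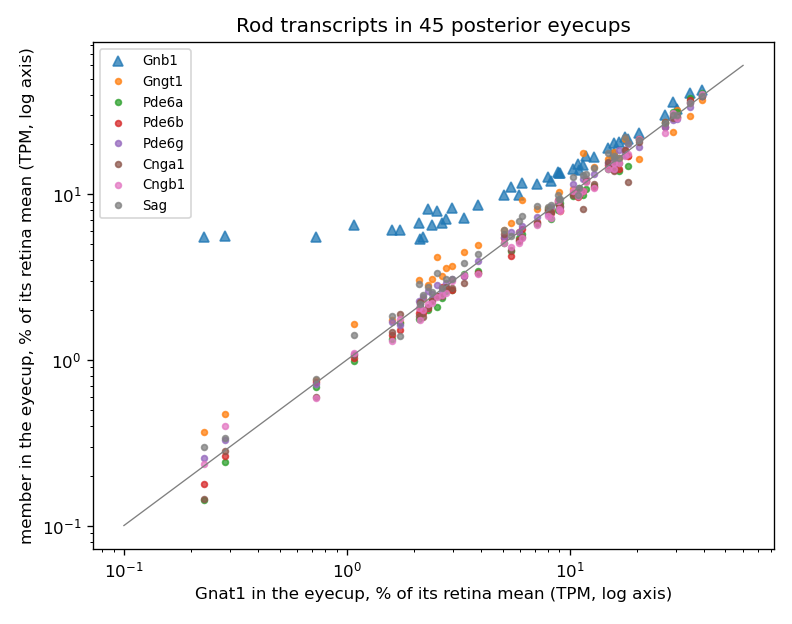
Level of 8 rod transcripts in each of 45 posterior eyecups as a percentage of their own mean TPM over 48 retinas (vertical log axis) against the same percentage for Gnat1 (horizontal log axis); the line marks equal percentages. Gngt1, Pde6a, Pde6b, Pde6g, Cnga1, Cngb1 and Sag follow the line, whereas Gnb1 (triangles) stays at 5.36% or more where Gnat1 is low.

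None of the 9 genes was called in the eyecup by edgeR between the genotypes at 3 months (3.07% of all genes called), 9 months (0.00555% called), 17 months (0.0611% called) or for the mean of the ages (4.48% called), nor at 17 against 3 months in Efemp1ki/ki (3.57% called) or wild-type eyecups (5.88% called). In these 6 comparisons 0 of the 9 had an unadjusted p under 0.05 by edgeR, and DESeq2 called 0. The SE of the log2 fold change of Gnat1 between genotypes was 0.77 at 3 months, 0.70 at 9 months and 0.73 at 17 months in the eyecup, against 0.05 at each age in the retina. Eyecup means of Gnat1 were 1075 ± 698, 1187 ± 783 and 1189.6 ± 1562 TPM in Efemp1ki/ki mice (SD, n = 8, 8 and 7) and 731 ± 459, 1580.4 ± 1535 and 1467 ± 1557 TPM in wild-type mice (SD, n = 6, 8 and 8) at 3, 9 and 17 months. The SD was above the mean in 2 of these 6 groups, and differences of the size seen in the retina were not detectable here.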

How the data were processed

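Neural retina and posterior eyecup libraries (93 in 12 groups) were grouped by their titles and characteristics. Per the labels' protocols, RNA from RNeasy micro columns with DNase treatment went into TruSeq Stranded mRNA libraries. The submitters' processing notes name build GRCm38.p4, and the aligner is not given in the sources used here, nor is the counter. Estimated counts per gene, as the authors deposited them, were rounded for the tests. The values the authors deposited as TPM have a fixed sum over protein-coding genes and were treated as a score. In each file 1 column that matched no sample was not used.

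Counts were tested with edgeR 4.0.16 (R 4.3.3, TMM, filterByExpr, robust quasi-likelihood fit of 6 groups per tissue, or of 12 groups for eyecup against retina), with Benjamini-Hochberg adjustment over all genes tested. The code was tested on simulated data. Alternatives were a fit of only the groups compared, no filter beyond a single read, RLE size factors, DESeq2 1.42.0, limma 3.58.1 (voom with quality weights, or on log2 of TPM + 1), leaving out libraries that stand apart, a replicate block, marker covariates and GC offsets. Ratios were tested in Python 3.11.15 by exact permutation. All 9 genes are named. From other lists only called genes or the 4 with the smallest p were eligible. The values of 1 listed gene are not reported here. The genes and lists were chosen with earlier results of these data known.

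The report gives the range of total counts in each tissue, and no 2 replicates agreed within sampling noise (lowest chi-square per degree of freedom 2.29). Replicate numbers were not taken as pairs, since at no age did every same-numbered pair of the 2 genotypes correlate above 0.1, in retina or eyecup.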

Additional observations from a re-analysis of the deposited data

Results flagged for a closer look

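In 108 checks of a rod transcript within a retina or eyecup group, 10 had a highest or lowest library far from the rest by Dixon's criterion, and chance alone gives about 1 in 20. Efemp1ki/ki retina replicate 5 at 3 months, one of the libraries that stand apart, accounted for 4 of them. It had the highest Gngt1 at 1192 CPM (next 848.9 CPM), the highest Cnga1 at 968.3 CPM (next 768.6 CPM), the highest Pde6b at 2562 CPM (next 2294 CPM) and the lowest Cngb1 at 971.3 CPM (next 1011 CPM). Wild-type retina replicate 7 at 3 months had the lowest Gnb1 at 4691 CPM (next 5281 CPM) and the lowest Sag at 2545 CPM (next 3281 CPM).

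At 9 months, Efemp1ki/ki retina replicate 7 had the highest Gngt1 at 988.7 CPM (next 898.3 CPM) and the highest Pde6g at 1635 CPM (next 1525 CPM). Efemp1ki/ki retina replicate 4 had the highest Pde6b at 2394 CPM (next 2203 CPM), and wild-type retina replicate 4 had the highest Pde6a at 2660 CPM (next 2405 CPM).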

How the results depend on the processing

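The tally given here covers the single genes and ratios that passed in the main tests and a few genes named beside them. Most gains by genes not called in the main tests are therefore outside it. It includes the large differences of the 9 genes in eyecup against retina, which stayed called under every alternative run. Of these alternative values, 411 kept direction and side of the threshold, 23 lost the threshold, 11 gained it and 11 reversed. The cause was not tested. On TPM the sign turned for Cngb1 at 9 against 3 months in wild type (0.03466) and in the mean of both genotypes (0.007344), for Cngb1 at 17 against 9 months in wild type (-0.02935), for Gngt1 at 17 against 9 months in Efemp1ki/ki (0.004661), wild type (0.1583) and their mean (0.08148), for Gngt1 at 17 against 3 months in their mean (0.09671), and at 17 against 9 months for Gnat1 to Gngt1 in wild type (-0.1124) and Cnga1 to Cngb1 in Efemp1ki/ki (0.00366). GC offsets turned Gngt1 at 17 against 9 months in wild type (0.1922) and in the mean of both genotypes (0.08085).

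Counts of called genes among the 9 moved by more than 1.5 times as follows. The share of all genes called under each alternative is not given beside them. A higher or lower count may therefore reflect how many genes that alternative calls in all. Between genotypes limma voom called 2 at 3 months and 2 for the mean of the ages, where GC offsets called 1. At 9 against 3 months in Efemp1ki/ki, GC offsets called 4. At 17 against 9 months in Efemp1ki/ki, the fit of only the groups compared and DESeq2 called 2, and limma voom and the fit without libraries that stand apart called 3; in wild type, GC offsets called 1. At 17 against 3 months in Efemp1ki/ki, no filter, TPM and leaving out libraries that stand apart gave 1, limma voom 4 and GC offsets 5. At 17 against 3 months in wild type, only the groups compared gave 0, RLE and TPM 2, DESeq2 3, leaving out libraries that stand apart and GC offsets 6, and limma voom 7. TPM gave 4 at 17 against 3 months in the mean of both genotypes.

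The replicate block was run although same-numbered retinas did not deviate together (mean correlations of 0.073, -0.027 and -0.056 at 3, 9 and 17 months). Same-numbered eyecups had mean correlations of -0.236, 0.224 and -0.021 at those ages, and at 9 months 5 of 7 pairs were above 0.1, with a lowest value of -0.449 and a highest of 0.754. The replicate block left 0 of the 9 genes called in each of the 6 comparisons between eyecup groups. With the block, 2 genes were called at 17 against 3 months in wild type, against 1 without it, and Gngt1 at 17 against 9 months in wild type passed at -0.18. The other 35 blocked values of single genes in the tally above, which leaves out most genes not called in the main tests, stayed on their side of the threshold. In the eyecup, the wide spread of retinal transcripts limits what any comparison of these genes can detect.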
